A study of Mus musculus with 4 samples.

Results

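The oligodendrocyte lineage transcription factors Olig1, Olig2, Sox10, Sox8, Sox6, Nkx2-2, Myrf, St18 and Zfp488 were followed through the cell clusters of adult mouse hypothalamus, measured by single-nucleus RNA sequencing. They are 9 of the 32285 genes of the deposited count tables and were taken as a named list. For each of them the unique molecular identifiers (UMIs, 1 per captured transcript molecule) were summed per library over every main cluster of the deposited annotation. Nuclei came from whole hypothalamus of 12 adult male mice bred on the C57/BL6NCr background. Of these, 6 were wild type (WT) and 6 were TRα1+m mice, which carry R384C on 1 of their 2 alleles of TRα1, a thyroid hormone receptor that then responds poorly to the hormone. Each library pooled nuclei of 3 mice of a genotype, and 2 experimental repeats each gave a WT and a TRα1+m library, so n = 2 libraries per genotype. The labels give no treatment for either genotype, and the mutation is not limited to a cell type. Effects within oligodendrocytes and effects that arise in other cells or hormone systems therefore cannot be told apart.

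Oligodendrocytes, the cells that wrap axons in myelin, arise from oligodendrocyte precursor cells (OPCs) that persist in the adult brain. Olig2 and Sox10 are basic helix-loop-helix and SOX factors needed for the lineage, and Olig1 and Sox8 are their close relatives. Sox6 is known to hold precursors in the undifferentiated state, Nkx2-2 promotes differentiation, and Myrf is the membrane-bound factor that, with Sox10, switches on myelin genes. St18 is a zinc finger factor of the Myt family, and Zfp488 is a zinc finger partner of Olig2. Thyroid hormone has long been known to time the differentiation of precursors, and its receptors bind DNA half-sites with the letters AGGTCA.

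The promoters of the members that the comparisons below turn on are shown first, because the genotypes differ in a receptor that binds DNA. RefSeq (GRCm38.p6) gave start-site windows, 250 bases before to 50 after the start, for 5 of the 9 members, 10 windows in all, of which 6 belong to Sox6. Of the Sox6 windows, only those that hold the half-site AGGTCA are printed, and the rest are left out. Nkx2-2 and Sox8 had 1 window each that is not printed here. No window was available here for Olig1, Sox10, Myrf and St18, so these genes were not searched. Each window was searched on both strands for AGGTCA, the thyroid hormone receptor half-site, for CAGCTG, an E-box of the kind that Olig proteins bind, and for ACAAAG, the core read by SOX factors. Matches are in capitals, and no marked match overlaps another.
Zfp488, chr14:33978715-33979014, minus strand: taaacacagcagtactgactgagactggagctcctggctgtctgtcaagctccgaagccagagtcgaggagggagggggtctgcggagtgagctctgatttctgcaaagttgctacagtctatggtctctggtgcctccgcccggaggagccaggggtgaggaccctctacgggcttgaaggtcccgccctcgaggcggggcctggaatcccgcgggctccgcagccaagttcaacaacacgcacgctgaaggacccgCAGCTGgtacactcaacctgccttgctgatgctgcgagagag
Olig2, chr16:91225300-91225599, plus strand: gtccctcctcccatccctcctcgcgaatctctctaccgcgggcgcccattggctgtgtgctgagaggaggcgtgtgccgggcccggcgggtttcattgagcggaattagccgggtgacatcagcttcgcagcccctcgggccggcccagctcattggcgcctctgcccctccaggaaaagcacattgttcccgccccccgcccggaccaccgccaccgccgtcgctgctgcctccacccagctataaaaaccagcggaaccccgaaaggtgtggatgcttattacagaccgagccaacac
Sox6, chr7:116030998-116031297, minus strand: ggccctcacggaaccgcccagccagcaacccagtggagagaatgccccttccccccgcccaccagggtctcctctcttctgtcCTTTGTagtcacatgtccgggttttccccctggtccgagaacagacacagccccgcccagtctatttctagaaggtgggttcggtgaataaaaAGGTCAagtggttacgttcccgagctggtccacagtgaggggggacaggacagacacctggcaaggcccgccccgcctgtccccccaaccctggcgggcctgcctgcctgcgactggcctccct
Sox6, chr7:115846091-115846390, minus strand: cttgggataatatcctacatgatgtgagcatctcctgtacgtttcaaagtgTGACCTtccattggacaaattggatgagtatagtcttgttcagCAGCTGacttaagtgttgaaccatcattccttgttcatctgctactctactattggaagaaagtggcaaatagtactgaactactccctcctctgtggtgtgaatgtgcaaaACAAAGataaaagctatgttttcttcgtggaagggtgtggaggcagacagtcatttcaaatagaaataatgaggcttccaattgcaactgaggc
Of the 10 windows of members, 6 of them of Sox6, the half-site was found only in the pair of Sox6 windows printed above. Among all 32851 promoters of this length 16.3% held it, 16.3% held the E-box and 18.7% the SOX core. The Zfp488 window held the E-box alone, and the windows of Olig2, Sox8 and Nkx2-2 held none of these 3 sets of letters. No binding was measured here, so these matches describe letters only.

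The gene bodies differ widely in length, which matters because intronic reads were counted in these nuclei. In the GENCODE M21 annotation of GRCm38, Sox6 (ENSMUSG00000051910) spans 568 kb at chr7:115470872-116038796 and St18 (ENSMUSG00000033740) 374 kb at chr1:6487231-6860940. Olig1 (ENSMUSG00000046160) is a single exon of 2.16 kb at chr16:91269772-91271933, and Olig2 (ENSMUSG00000039830) lies 41.1 kb away from it at chr16:91225457-91228677, on the same strand. Sox10 (ENSMUSG00000033006) is at chr15:79154908-79165240, Sox8 (ENSMUSG00000024176) at chr17:25565892-25570686, Nkx2-2 (ENSMUSG00000027434) at chr2:147177546-147194243, Myrf (ENSMUSG00000036098) at chr19:10208272-10240748 and Zfp488 (ENSMUSG00000044519) at chr14:33967070-33978764. Genes on the opposite strand overlap Olig1, Sox8, Sox6 and Nkx2-2, of which Nkx2-2os had the most UMIs, 3871 over all kept nuclei. Whether the counting used strand is not given in the sources used here, so these 4 genes carry that uncertainty.

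Of 68190 barcodes the authors kept 56386 nuclei, among them 6135 oligodendrocytes and 2110 OPCs, and these labels were used as deposited. Libraries held 47260127 to 59112785 UMIs, of which 2525236 to 2713480 came from oligodendrocytes and 1314390 to 1616000 from OPCs. Median UMIs per nucleus were higher in repeat 2 (4018 in WT and 3382 in TRα1+m) than in repeat 1 (3038 and 2904). Any 2 libraries shared 44 to 64 barcodes, at most 0.443% of the smaller one. The labelled cells carried their markers. Summed over 6 oligodendrocyte markers, the level was 9451 to 23947 CPM (the UMIs of a gene scaled to 1000000 UMIs of the cluster in that library) in oligodendrocytes and 1398 to 1844 CPM in OPCs, and summed over 5 precursor markers it was 96.6 to 220 and 4098 to 5530 CPM. The pools are the only replicates, and fewer positive nuclei and less RNA per nucleus cannot be told apart in a sum.

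Along the lineage the 9 factors split into a precursor side and a mature side. Between the OPC and oligodendrocyte clusters, 7 of the 9 factors were higher in OPCs in all 4 libraries, and Myrf and St18 were higher in oligodendrocytes in all 4. Because the clusters were made from the same nuclei and genes, this order is a description and carries no test.

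**Figure D1:**
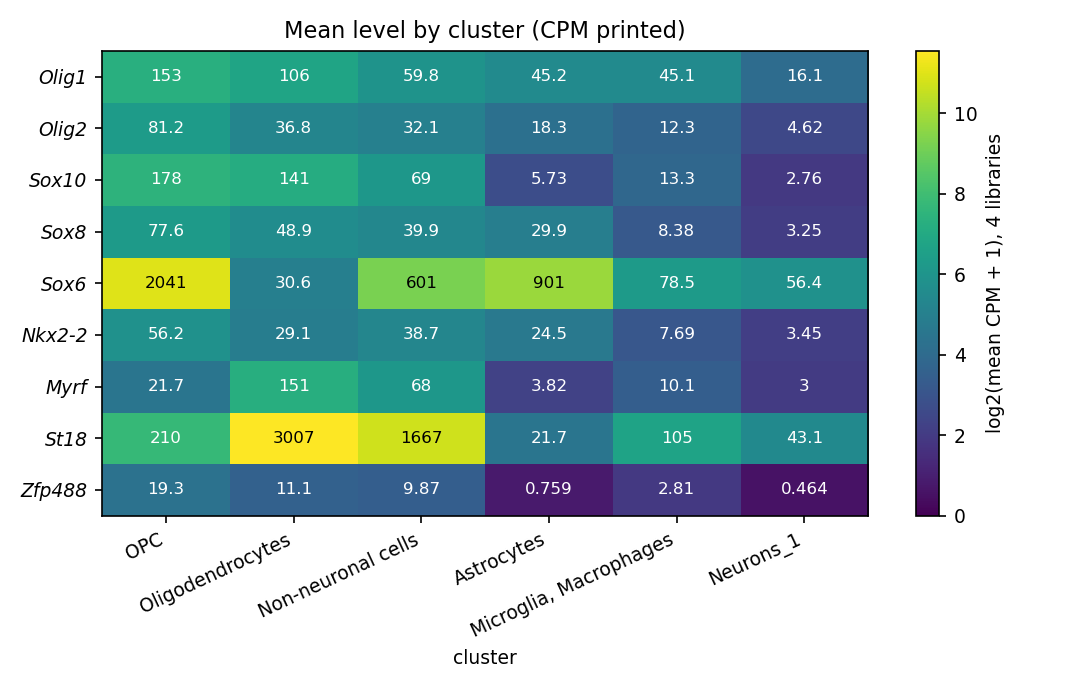
Mean CPM of the 9 transcription factors (rows) in 6 clusters (columns), 4 libraries each; colour shows log2(mean CPM + 1) and the printed number is the mean CPM. Sox6 was highest in OPCs (2041) and second in astrocytes (901), while St18 was highest in oligodendrocytes (3007).

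Sox6, which restrains differentiation, had the widest gap. Its level in OPCs was 1943 and 1874 CPM in the WT libraries of repeats 1 and 2 and 2239 and 2109 CPM in the TRα1+m libraries. In oligodendrocytes it was 30.5, 31.0, 45.1 and 15.8 CPM in the same order, which is a mean of 76.8 ± 38.1 times less (SD, n = 4 libraries). The oligodendrocyte level was below that of microglia (78.5 ± 19.2 CPM) and Neurons_1 (56.4 ± 9.22 CPM), the large neuronal cluster. Astrocytes came second at 901 ± 52.2 CPM. No range of Sox6 in OPCs, astrocytes or oligodendrocytes touched that of another of these 3 clusters.

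St18 ran the other way. It was at 3061, 2676, 3116 and 3176 CPM in oligodendrocytes and at 267, 130, 220 and 224 CPM in OPCs, 15.1 ± 3.87 times less. Myrf, the switch for myelin genes, followed with 122, 159, 155 and 169 CPM in oligodendrocytes against 15.5, 17.4, 20.4 and 33.5 CPM in OPCs, a ratio of 7.41 ± 1.72. In astrocytes and Neurons_1, Myrf stood at 3.82 ± 1.91 and 3.00 ± 0.94 CPM, and its range in astrocytes overlapped both that of Neurons_1 and that of microglia (10.1 ± 3.17 CPM). The range of St18 in OPCs overlapped that of microglia (105 ± 46.0 CPM). The small cluster labelled Non-neuronal cells, 207 nuclei with 34 to 80 per library, had St18 at 1667 ± 268 CPM, Sox6 at 601 ± 88.0 CPM and Myrf at 68.0 ± 7.73 CPM. Its median depth was 2799 to 3993 UMIs per nucleus, against 1493 to 1812 in oligodendrocytes and 1683 to 2212 in astrocytes. The study left this cluster out of its later analyses as a precaution against doublets, and the part of doublets in these levels was not tested.

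The lineage factors proper differed less between the stages. The ratio of OPCs to oligodendrocytes within a library was 2.13 ± 0.30 for Olig2, 1.98 ± 0.40 for Nkx2-2, 1.92 ± 0.56 for Zfp488 and 1.58 ± 0.18 for Sox8. It was 1.36 ± 0.36 for Olig1 and 1.26 ± 0.12 for Sox10. In repeat 1 Olig1 was nearly level, at 76.8 CPM in OPCs against 74.8 in oligodendrocytes in WT and 80.4 against 74.7 in TRα1+m. In repeat 2 it was at 233 against 142 CPM in WT and 223 against 131 in TRα1+m. For Olig1, Olig2, Sox10 and Zfp488 the ranges of the 4 libraries overlapped between the clusters although each library on its own was higher in OPCs. Sox10 had a sharp edge towards most other cells: 178 ± 63.8 CPM in OPCs and 141 ± 46.0 in oligodendrocytes, against 13.3 ± 6.12 in microglia, 5.73 ± 2.68 in astrocytes and 2.76 ± 1.10 in Neurons_1. Olig1, in contrast, was at 45.2 ± 10.9 CPM in astrocytes and 45.1 ± 9.63 in microglia, and these ranges overlapped. In Neurons_1 it was at 16.1 ± 1.97 CPM, in deeper nuclei (median 3797 to 5227 UMIs, against 1683 to 2212 in astrocytes). Counted per nucleus, Olig1 was close in the 3 clusters, at 0.096 UMIs in astrocytes, 0.074 in microglia and 0.079 in Neurons_1. The part of RNA from other cells in these Olig1 levels was not tested. Sox8 and Nkx2-2 were also found in astrocytes, at 29.9 ± 4.70 and 24.5 ± 6.30 CPM, and for Nkx2-2 this overlapped the range in oligodendrocytes (29.1 ± 6.77 CPM).

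Per kilobase of gene body the order of the factors changed. In OPCs Olig1 led with 70.9 CPM per kb, followed by Olig2 with 25.2, Sox10 with 17.2 and Sox8 with 16.2, while Sox6 stood at 3.59 and St18 at 0.56. In oligodendrocytes the per-length levels were 48.9 for Olig1, 13.6 for Sox10, 11.4 for Olig2, 10.2 for Sox8, 8.05 for St18 and 4.66 for Myrf. Sox6 and St18, first by total, are also the longest genes of the list.

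**Figure D2:**
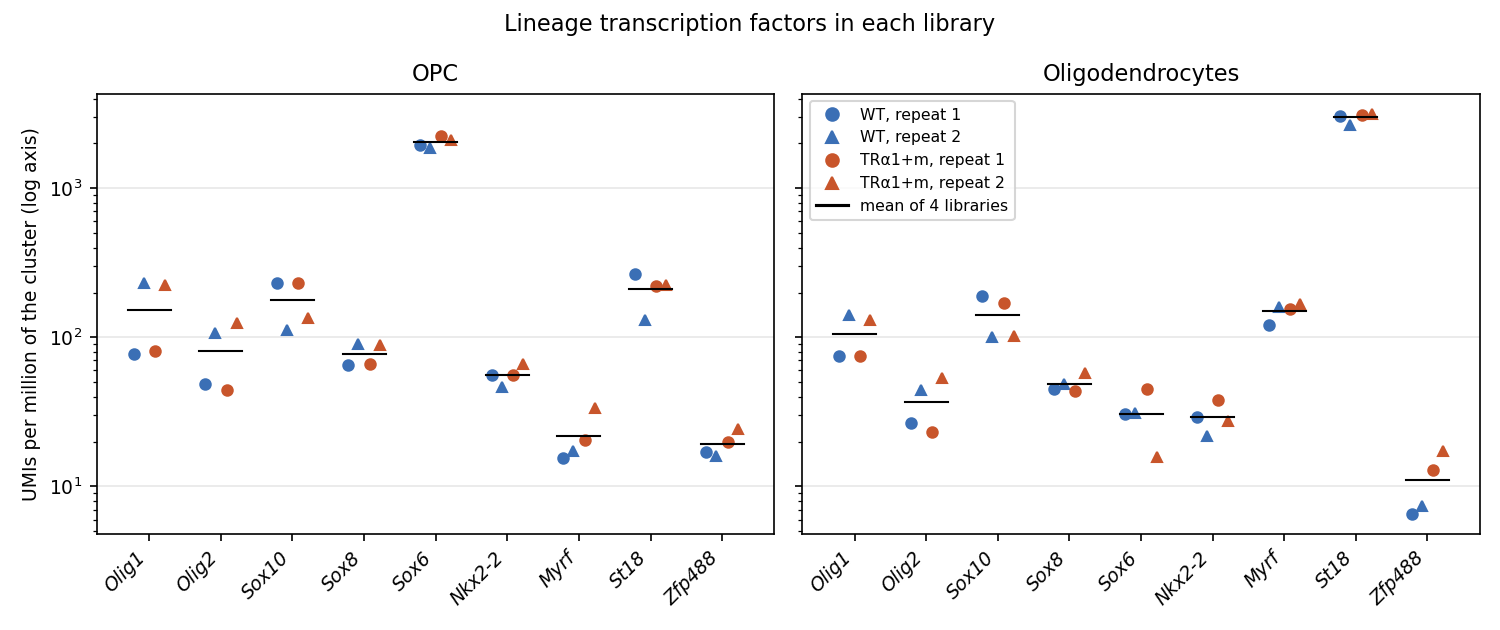
CPM (log axis) of each factor in OPCs (left) and oligodendrocytes (right), 1 point per library, with circles for repeat 1, triangles for repeat 2 and a line at the mean of the 4. In oligodendrocytes both TRα1+m points of Zfp488 (12.9 and 17.4) lie above both WT points (6.56 and 7.37), and Olig1 and Olig2 split by repeat in both clusters.

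Shares of nuclei with at least 1 UMI gave the same split. Sox6 was seen in 96.1% ± 1.14 of OPCs and 4.80% ± 1.71 of oligodendrocytes, and St18 in 9.80% ± 0.76 and 94.8% ± 0.70 (SD, n = 4 libraries). Sox10 was seen in 35.7% ± 7.32 of OPCs and 20.7% ± 4.44 of oligodendrocytes. Zfp488 was the rarest in both, at 4.93% ± 1.13 and 1.85% ± 0.91, against 0.22% ± 0.09 of Neurons_1. When each nucleus was thinned to 900 UMIs, since nuclei differ in depth, the same 7 factors had the higher mean share in OPCs: Sox6 was found in 80.2% ± 3.17 of OPCs and 2.72% ± 1.16 of oligodendrocytes, and St18 in 6.43% ± 1.13 and 87.3% ± 1.90. At this depth 2 of the 7 were not higher in OPCs in every library: Sox10 was seen in 8.29% of OPCs and 9.17% of oligodendrocytes in the WT library of repeat 2, and Zfp488 in 0.884% and 1.31% in the TRα1+m library of repeat 1. In thinned Neurons_1, 0.27% ± 0.11 of nuclei had a UMI of Sox10 and 0.28% ± 0.06 of Myrf. Neurons_1 was no clean blank: at whole depth its sub-cluster 11, described below, held 64 of its 476 Sox10 UMIs and 58 of its 521 Myrf UMIs. Sox6 was seen in 3.98% ± 0.64 of thinned Neurons_1 and 4.91% ± 1.03 of thinned microglia, both above its mean share in oligodendrocytes. For St18 these shares were 3.48% ± 0.55 and 3.60% ± 1.25, below its mean share in OPCs. The part of RNA from other cells in these shares was not tested. Olig1 was higher than Sox10 and Myrf in thinned Neurons_1, at 1.75% ± 0.30, and was at 4.32% ± 0.91 in thinned astrocytes. Nuclei of Neurons_1 were deeper, so thinning took more from them. At whole depth Olig1 was close in both, at 0.079 UMIs per nucleus in Neurons_1 and 0.096 in astrocytes. Whether Olig1 in astrocytes lay above background was not tested. Sox10 and Myrf in thinned astrocytes (0.40% ± 0.24 and 0.30% ± 0.15) were near the neuronal share, and the part of background in them was not tested. At whole depth 76.2% ± 10.1 of OPCs and 57.5% ± 5.36 of oligodendrocytes had UMIs of at least 2 of the 9 factors, against 5.21% ± 1.09 of Neurons_1. At 900 UMIs these shares were 37.6% ± 5.47, 35.4% ± 2.94 and 0.55% ± 0.14, so the gap between the lineage clusters lay within their spread.

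St18 in the OPC cluster was concentrated in few nuclei. Nuclei with 5 or more St18 UMIs, a limit set after the values were seen, numbered 18, 10, 26 and 21 in the 4 libraries (WT repeats 1 and 2, then TRα1+m), 75 of 2110. They held 78.3% ± 7.76 of the St18 UMIs of the cluster. Sox6 in them was 1993 ± 365 CPM, as high as the 2017 ± 179 CPM of the 1904 OPC nuclei without St18. Myrf was 132 ± 50.3 CPM against 13.8 ± 4.35, and the lowest library with St18-rich nuclei (65.2) lay above the highest without (20.2). That Myrf level rested on few UMIs, since the St18-rich nuclei were few. Bcas1 and Enpp6, genes of newly formed oligodendrocytes, were at 2317 ± 647 and 1000 ± 328 CPM, against 315 ± 33.1 and 5.99 ± 6.86. The precursor receptor Pdgfra was at 116 ± 78.0 CPM against 888 ± 246. Olig2, also from few UMIs in the St18-rich nuclei, was at 46.1 ± 18.6 against 83.5 ± 42.9 CPM with overlapping ranges. Their median depth was also higher, 3744 ± 592 UMIs against 2491 ± 334. The authors removed nuclei with high doublet scores, and the part of depth or of remaining doublets in these levels was not tested.

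**Figure D3:**
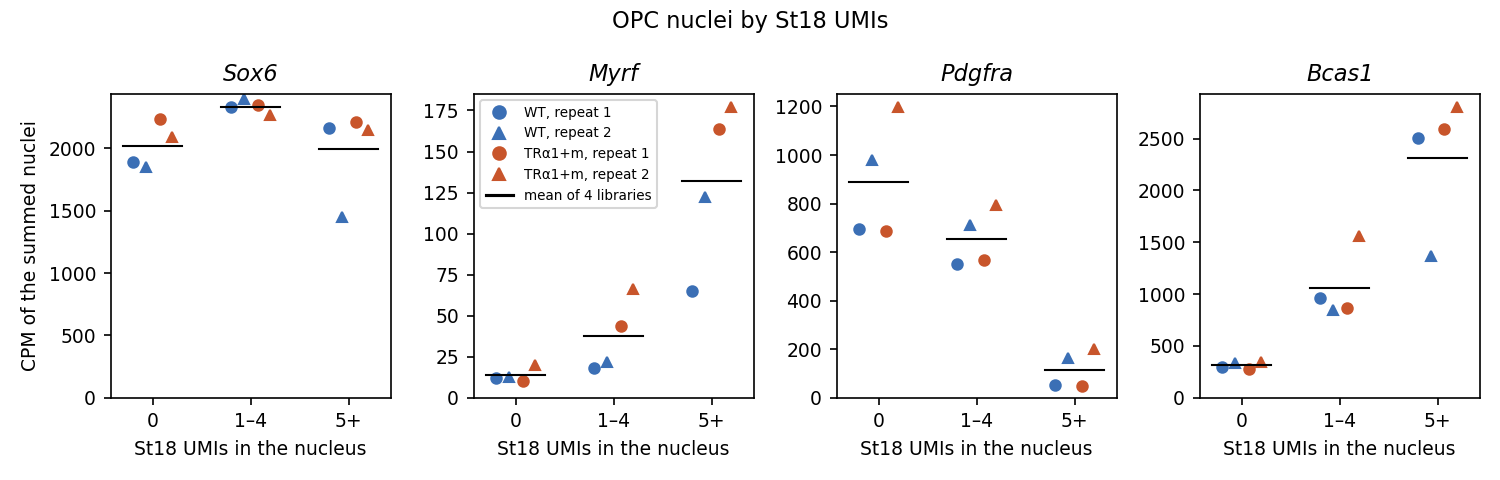
CPM of Sox6, Myrf, Pdgfra and Bcas1 in OPC nuclei summed by their St18 UMIs (0, 1 to 4, or 5 and more), 1 point per library and a line at the mean of 4; the axes start at 0. Sox6 stayed between 1448 and 2392 in every group, while the mean of Myrf went from 13.8 to 132 and that of Pdgfra from 888 to 116.

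OPCs were also split by other genes. Bcas1 and Enpp6 are among these and were high in the St18-rich nuclei, so the split is not independent of the one above. OPC nuclei in which the UMIs of Gpr17, Bcas1, Enpp6 and Tmem163 summed to at least 2 were compared with nuclei that had no UMI of these genes. St18 was at 323 ± 135 CPM in the former and 42.7 ± 21.7 in the latter, and Nkx2-2 at 61.9 ± 11.5 and 49.0 ± 14.7, both higher in all 4 libraries. The other 7 factors were not higher in all of them: Sox10, for example, stood at 176 ± 58.7 and 185 ± 75.9 CPM. Pdgfra was at 792 ± 231 and 838 ± 188 CPM. The nuclei with these genes were deeper (median 2530 to 3111 UMIs) than those without (1907 to 2375), and the part of depth in the split was not tested. With a sum of at least 3 UMIs, Sox6 joined St18 and Nkx2-2 in being higher in all 4 libraries.

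Outside the lineage, single sub-clusters carried part of the signal. Within the astrocyte cluster, Nkx2-2 was at 28.7 ± 7.43 CPM in the sub-cluster named astrocytes and 5.58 ± 4.51 in tanycytes, the glia that line the third ventricle, and their ranges did not overlap. Sox8 was at 33.6 ± 5.07 and 11.6 ± 5.92. St18 went the other way, 13.2 ± 3.87 in astrocytes and 63.0 ± 21.6 in tanycytes, and Sox6 was at 857 ± 67.4 and 1118 ± 92.3. Among named neurons, the mean of Sox6 was highest in MCH neurons, with 273 and 265 CPM in repeat 1 (WT, TRα1+m) and 132 and 99.3 CPM in repeat 2, against a mean of 56.4 in Neurons_1 as a whole. This range overlapped that of the sub-cluster Glutamatergic Neurons_3 (58.1 to 101 CPM), which was the higher one in the TRα1+m library of repeat 2. The means of the other factors in MCH neurons were also above those of Neurons_1 as a whole. Olig1, Sox10, Sox8 and Nkx2-2, for example, were at 29.7, 8.45, 8.62 and 9.12 CPM, against 16.1, 2.76, 3.25 and 3.45 CPM. The part of RNA from other cells or of doublets in these levels was not tested. An unnamed neuronal sub-cluster with the number 11 held St18 at 825, 488 and 885 CPM in the 3 libraries with at least 10 of its nuclei, with Myrf at 34.6 ± 9.65 and Sox10 at 35.0 ± 11.4 CPM (SD, n = 3). The TRα1+m library of repeat 2 had 4 such nuclei. In CART Neurons_2, with a level in the WT library of repeat 2 alone (19 nuclei), St18 was at 651 and Myrf at 38.8 CPM. Sub-cluster 11 was singled out after its values were seen, and the values that follow are its own. The 6 oligodendrocyte markers summed to 2506 to 3636 CPM there and the 5 neuronal markers to 2548 to 3155, against 380 to 507 and 3219 to 3475 in the other Neurons_1 nuclei. Its median depth was 5524 to 8140 UMIs, against 3783 to 5214, and the part of doublets was not tested. Without it, Neurons_1 had St18 at 35.9 ± 4.49 CPM, down from 43.1 ± 10.6. Of the 7479 St18 UMIs of Neurons_1, GABA neurons held 3855 and sub-cluster 11 held 1331 in its 3 libraries. St18 was at 55.5 ± 5.88 CPM in GABA neurons, 63.3 ± 16.4 in NPY/AgRP neurons and 67.8 ± 27.3 in MCH neurons. In the sub-clusters Glutamatergic Neurons_1, Glutamatergic Neurons_2 and Glutamatergic Neurons_3 it was at 12.5 ± 2.90, 30.0 ± 6.80 and 11.9 ± 3.64 CPM.

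In the fit without the repeat, none of the 9 factors differed between the genotypes past an adjusted p of 0.05 in any of the 4 clusters tested. This was the edgeR quasi-likelihood test, with Benjamini-Hochberg over all genes tested. With the repeat as a replicate block, edgeR called Zfp488 in oligodendrocytes and no other factor, as given below. Without the block, 13 of 12630 genes passed in oligodendrocytes, which is 0.103%. In OPCs, astrocytes and Neurons_1 no gene passed (0% of 11248, 14797 and 19926), with 185, 255 and 193 genes at an unadjusted p under 0.05 and 1 gene each by DESeq2. In oligodendrocytes 672 genes were under this unadjusted limit. Of the 9 factors, 1 was under it in oligodendrocytes and none in the other clusters. All 9 passed the filter on low counts in oligodendrocytes, OPCs and Neurons_1, and 8 did in astrocytes, where Zfp488 had 15 UMIs in all.

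The precision differed strongly among the members. St18 in oligodendrocytes had a log2 fold change (TRα1+m over WT) of 0.20 ± 0.14 (SE), with a 95% interval of -0.15 to 0.55, and Myrf of 0.27 ± 0.19 (-0.18 to 0.73). Sox6 in OPCs had 0.15 ± 0.12 (-0.13 to 0.43) and Sox8 -0.05 ± 0.23 (-0.58 to 0.48). For Olig1 the interval in OPCs ran from -2.45 to 2.31, and for Olig2 from -1.67 to 1.79. These widths hold the spread between the repeats, and with the repeat as a replicate block the intervals in OPCs were -0.35 to 0.25 for Olig1, -0.32 to 0.40 for Olig2 and -0.21 to 0.37 for Sox10, and in oligodendrocytes -0.30 to 0.31, -0.25 to 0.55 and -0.32 to 0.28. With genotype and repeat both fitted, little spread is left to measure per gene, so these narrower intervals lean on spread shared across genes. Without the block the intervals in oligodendrocytes were -0.98 to 0.98 for Olig1, -0.92 to 1.28 for Olig2, -1.01 to 0.92 for Sox10, -1.08 to 1.19 for Sox6, -0.37 to 0.71 for Sox8 and -0.26 to 1.10 for Nkx2-2. In OPCs, Sox10 had an interval of -1.28 to 1.40, St18 of -0.82 to 1.03, Nkx2-2 of -0.32 to 0.75 and Zfp488 of -0.36 to 1.11. In astrocytes the log2 fold changes were -0.07 for Olig1, -0.04 for Olig2, 0.37 for Sox10, 0.07 for Sox8, -0.11 for Sox6, -0.25 for Nkx2-2, 0.36 for Myrf and 0.27 for St18. In Neurons_1 they were -0.25 for Olig1, 0.02 for Olig2, 0.04 for Sox10, -0.24 for Sox8, -0.0070 for Sox6, 0.0066 for Nkx2-2, -0.33 for Myrf, -0.12 for St18 and 0.15 for Zfp488.

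**Figure D4:**
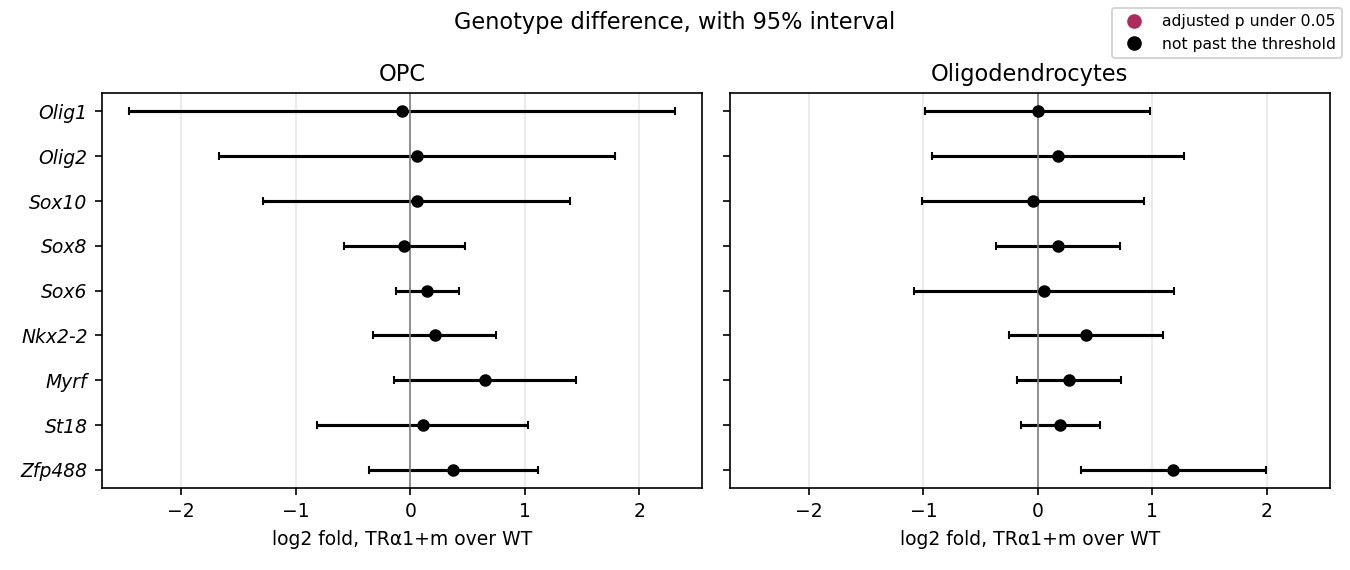
Log2 fold change of TRα1+m over WT with its 95% interval for each factor in OPCs (left) and oligodendrocytes (right), from 2 libraries per genotype. In this edgeR fit, without the replicate block, all adjusted p-values missed 0.05. The interval of Zfp488 in oligodendrocytes (0.37 to 1.99) is the only 1 of the 18 that does not reach 0.

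Zfp488 was the member nearest to a genotype difference. Its level in oligodendrocytes was 6.56 and 7.37 CPM in the WT libraries and 12.9 and 17.4 CPM in the TRα1+m libraries, from 17, 20, 35 and 44 UMIs. The TRα1+m library was higher in both repeats, and the groups did not overlap. The log2 fold change was 1.18 ± 0.33, or 2.27-fold, with an adjusted p of 0.522 by edgeR. With the repeat as a replicate block the log2 fold change was the same and the adjusted p was 0.0149, in a fit that called 550 of 12630 genes (4.35%). That edgeR p-value, too, leans on spread shared across genes. DESeq2 gave an adjusted p of 1.00 with and without the block. Over the other alternatives with no block, each library left out included, the adjusted p ran from 0.117 to 1.00 and the log2 fold change from 0.93 to 1.40. Nuclei with a Zfp488 UMI made up 1.04% (95% Clopper-Pearson interval 0.60 to 1.65) and 1.36% (0.82 to 2.12) of oligodendrocytes in WT and 1.90% (1.30 to 2.67) and 3.11% (2.27 to 4.16) in TRα1+m. These intervals cover counting error within a library, not the spread between pools. Thinned to 900 UMIs, the shares of nuclei with a Zfp488 UMI were 0.488% and 0.501% in WT and 1.31% and 2.05% in TRα1+m. In OPCs the levels were 17.0 and 15.9 against 19.8 and 24.3 CPM, a log2 fold change of 0.38 ± 0.32. The difference of the genotype effect between the clusters was 0.82 ± 0.41 (adjusted p = 0.910), in a test that called 53 of 13152 genes (0.403%) and none of the 9 factors.

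Both TRα1+m libraries lay above both WT libraries for 2 of the 9 factors in oligodendrocytes, St18 and Zfp488, as they did for 11.7% of all genes, and below them for none, as they did for 20.6%. In OPCs 4 factors lay above, namely Sox6, Nkx2-2, Myrf and Zfp488, against 16.3% of all genes, and none below, against 11.1%. Myrf in OPCs was at 15.5 and 17.4 CPM in WT and 20.4 and 33.5 CPM in TRα1+m, a log2 fold change of 0.65 ± 0.35 (adjusted p = 1.00 by edgeR). Sox6 in OPCs was at 1908 ± 48.7 against 2174 ± 92.3 CPM (SD, n = 2 each). The median log2 fold change of the 9 factors was 0.18 in oligodendrocytes and 0.11 in OPCs, against 0.01 and 0.00 over all genes tested.

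Other genes of the pathway gave no call between the genotypes either, in the edgeR fit without the replicate block. With the block, 550 of 12630 genes were called in oligodendrocytes and 64 of 11248 in OPCs. Calls among the lists below are not given here for that fit. Of 40 other lineage regulators, 36 were tested in oligodendrocytes and 36 in OPCs, and none passed. The median log2 fold changes were 0.08 and 0.03. The most abundant were Qk, an RNA-binding protein, at 3276 ± 313 against 3326 ± 64.3 CPM in oligodendrocytes, and Zeb2, a repressor, at 1929 ± 37.5 against 2298 ± 51.4 (log2 fold change 0.32 ± 0.13, adjusted p = 0.940 by edgeR), then Zfp536 at 1460 ± 48.9 against 1463 ± 150. In OPCs they were Qk, Tcf4 and Sox5, with log2 fold changes of 0.10, 0.06 and -0.06. Of 18 target genes of SOX10 and MYRF, none of 18 passed in oligodendrocytes and none of 17 in OPCs. Mbp, a protein of compact myelin, was at 2184 ± 57.5 CPM in WT against 2322 ± 374 in TRα1+m oligodendrocytes, and Trf, the iron carrier transferrin, at 1848 ± 1083 against 2028 ± 1534. In OPCs Mbp and Nfasc had log2 fold changes of 0.13 and 0.43. Of 10 genes of newly formed oligodendrocytes none passed in either cluster. Bcas1 was at 489 ± 30.3 against 348 ± 60.3 CPM in oligodendrocytes and 444 ± 47.5 against 510 ± 112 in OPCs, and the others of highest level were Mpzl1 and Sirt2 in oligodendrocytes (0.28 and 0.14) and Fyn and Tmem163 in OPCs (0.34 and 0.03). Of 13 precursor genes none of 12 and none of 13 passed. Lhfpl3, Ptprz1 and Tnr led in OPCs with log2 fold changes of -0.10, -0.10 and -0.26, and Ptprz1, Cspg5 and Lhfpl3 in oligodendrocytes with 0.07, 0.26 and -0.015.

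The spread within a genotype followed the experimental repeat for several members. This comparison was added after the values were seen. With genotype and repeat both fitted, 4 libraries leave little spread to measure per gene. The p-values and SEs of this fit therefore lean on spread shared across genes. With genotype in the model, 4 of the 9 factors differed between the repeats in oligodendrocytes, where 12.4% of all genes did, and 4 in OPCs, where 11.4% did (edgeR, adjusted p under 0.05). Olig1 in OPCs was at 76.8 and 80.4 CPM in the repeat 1 libraries (WT, TRα1+m) and 233 and 223 CPM in those of repeat 2. The log2 fold change of repeat 2 over repeat 1 was 1.46 ± 0.16 (adjusted p = 1.78e-18 by edgeR). Olig2 in OPCs was at 48.8 and 44.6 CPM in repeat 1 and 107 and 124 CPM in repeat 2, a change of 1.24 ± 0.18 (adjusted p = 1.64e-09 by edgeR). Sox10 moved the other way, from 232 and 233 CPM to 112 and 135 CPM, a change of -0.99 ± 0.15 (adjusted p = 1.38e-09 by edgeR). For these 3 genes the 2 repeats did not overlap and the 2 genotypes of a repeat lay close together.

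In oligodendrocytes the same 3 genes differed in the same directions. Olig1 was at 74.8 and 74.7 CPM in repeat 1 and 142 and 131 CPM in repeat 2 (log2 fold change 0.86 ± 0.15, adjusted p = 1.26e-05 by edgeR), Olig2 at 26.6 and 23.3 against 44.2 and 53.1 CPM (0.95 ± 0.20, adjusted p = 0.000291 by edgeR) and Sox10 at 190 and 170 against 101 and 102 CPM (-0.84 ± 0.15, adjusted p = 1.79e-05 by edgeR). Sox6 in oligodendrocytes fell by 0.71 (adjusted p = 0.0391 by edgeR), from 30.5 and 45.1 CPM in repeat 1 to 31.0 and 15.8 CPM in repeat 2. This call was lost with RLE factors (adjusted p = 0.0917), the bias-adjusted fit (0.0531), DESeq2 (0.712) or no genotype term (0.303), and also without the TRα1+m library of repeat 2 (0.551), where the fall was 0.35. St18 in OPCs fell by 0.56 (adjusted p = 0.00156 by edgeR), with 267 CPM in the WT and 220 CPM in the TRα1+m library of repeat 1 and 130 and 224 CPM in those of repeat 2. It was no longer past the threshold without either WT library (adjusted p = 0.410 without repeat 1 and 0.486 without repeat 2) or by DESeq2 (1.00) or with no genotype term (0.159). With 3 libraries and no genotype term, Olig1, Olig2 and Sox10 kept their calls in OPCs whichever library was left out. In oligodendrocytes all 4 calls were lost without the WT library of repeat 1 (Olig1 adjusted p = 0.338 by edgeR) and without the TRα1+m library of repeat 1 (0.404), with log2 fold changes of 0.84 and 0.87 for Olig1. Olig2 in oligodendrocytes was also not called by DESeq2 (adjusted p = 0.201).

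**Figure D5:**
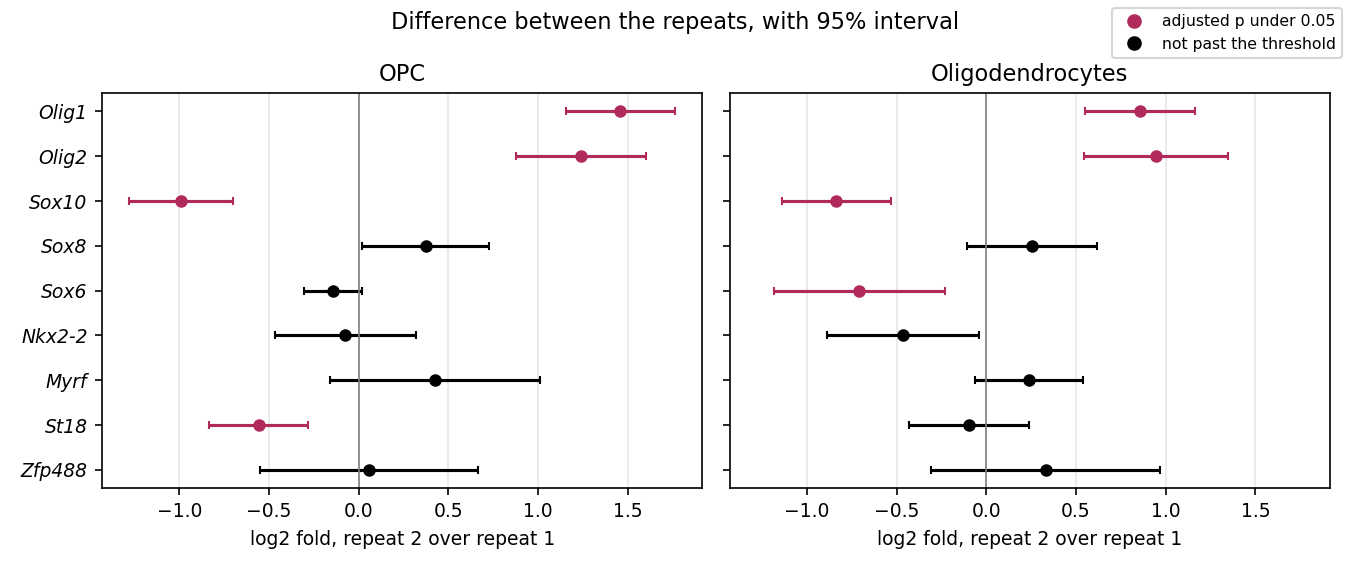
Log2 fold change of repeat 2 over repeat 1 with its 95% interval, genotype in the model, for each factor in OPCs (left) and oligodendrocytes (right); coloured points passed an adjusted p of 0.05. Olig1 and Olig2 lie to the right (0.86 to 1.46) and Sox10 to the left (-0.84 and -0.99) in both clusters.

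Other values moved with the repeats. In oligodendrocytes the 6 oligodendrocyte markers summed to 10457 and 9451 CPM in repeat 1 and 20065 and 23947 CPM in repeat 2, and the 4 astrocyte markers, of which 3 were lower in repeat 2, to 702 and 955 against 566 and 547 CPM. Of the 18 targets of SOX10 and MYRF, 11 were higher in repeat 2 of the oligodendrocytes and 1 was lower, with a median of 0.73 against 0.01 over all genes, while Sox10 itself was lower. Of the 13 precursor genes, 8 were higher and none lower in repeat 2 of the OPCs, while in oligodendrocytes none of the 12 tested was higher and 5 were lower. Of all genes, 650 were higher and 918 lower among 12630 in oligodendrocytes, and 644 were higher and 639 lower among 11248 in OPCs. Sox10 was also at 7.28 and 8.62 CPM in repeat 1 and 2.81 and 4.23 CPM in repeat 2 of astrocytes, and at 3.48 and 3.92 against 1.87 and 1.77 CPM in Neurons_1. The part of depth, of RNA from other cells or of library preparation in these differences was not tested.

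Finally, the genes most like each factor were read from the 20 sums of 5 clusters in 4 libraries, over 13024 genes that reached a mean of 10 CPM in a cluster. These correlations of log2(CPM + 1) describe shared clusters and libraries and carry no test. Of the 27 partners, 3 for each factor, 7 were other members, and 20 of the 27 were found again with a pseudocount of 10. Olig1 and Olig2 were each other's first partner (Pearson r = 0.96), followed by Pllp (0.92) and Wscd1 (0.91) for Olig1 and Foxn2 (0.95) and Sox8 (0.94) for Olig2. Sox8 went with Nkx2-2 (0.96), Abtb2 (0.96) and Olig2 (0.94), and Nkx2-2 with Abtb2 (0.98), Sox8 (0.96) and Gpsm2 (0.94). Sox10 went with Prkcq, Bcas1 and the connexin Gjc3 (0.98, 0.97 and 0.97). Myrf went with Enpp2, Sh3tc2 and the galactolipid enzyme Ugt8a (0.98, 0.97 and 0.97), and St18 with Bche, Elovl7 and Myrf (0.97, 0.97 and 0.97). Sox6 went with Mir9-3hg, Ptprz1 and Gm45025 (0.99, 0.98 and 0.97), the last an antisense gene within Sox6. Zfp488 went with Rnf43, Serinc5 and Prkcq (0.96, 0.96 and 0.95).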

How the data were processed

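Nuclei from snap-frozen hypothalamus were sequenced with 10x chemistry. Per the submitters' notes, Cell Ranger 5.0.1, mm10 and Seurat were used. The authors counted intronic reads too, and kept nuclei with at least 900 counts, at least 700 genes and at most 5% mitochondrial reads and removed likely doublets. The deposited count tables hold these raw UMI counts of 32285 genes, without normalization, and the deposited annotation names each kept nucleus. Clusters were used as annotated. No per-sample column of another series was found.

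Here UMIs were summed per library and cluster. Genotypes were compared with edgeR 4.0.16 in R 4.3.3 (filterByExpr, TMM factors, robust quasi-likelihood F-test, two-sided, Benjamini-Hochberg over all genes of a cluster, threshold 0.05), with DESeq2 1.42.0 as an alternative. The interaction test had a library block. The fit was tested on simulated counts that held no difference between the repeats, so that test does not cover the repeat spread found here. Pools of 3 mice are the replicates (n = 2). The repeats pair the libraries, since each was 1 experiment with both genotypes, and deviations of same-numbered libraries correlated at 0.49 to 0.77 in the 4 clusters. Levels across clusters, shares (thinned to 900 UMIs with a fixed seed), splits of OPCs and alike genes were computed in Python 3 without tests, with a pseudocount of 1 on log2 scales. Oligodendrocytes gave 2525236 UMIs or more per library and OPCs 1314390 or more. Intervals of shares are Clopper-Pearson and cover counting error only, and those of fold changes come from the edgeR fits.

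All 9 factors were named in every cluster tested, with the 3 most alike genes of each. Of each other list, genes past the threshold were to be named, or else the 3 of highest mean CPM in the cluster; 1 item that this rule names is not reported here. Members, lists and tests were chosen with earlier results of these data known.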

Additional observations from a re-analysis of the deposited data

How the results depend on the processing

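No factor passed the threshold for genotype in OPCs, astrocytes or Neurons_1 under any alternative run, and in oligodendrocytes only Zfp488 did, in the 2 edgeR fits with the repeat as a replicate block (described above); the block changed no other member's call. Zfp488 kept its direction in all 12 alternatives. The 7 factors higher in OPCs and the 2 higher in oligodendrocytes kept that order in all 4 libraries with TMM-adjusted CPM and with means over nuclei. Fits of the repeats, the DESeq2 and bias-adjusted fits with a block, the St18 limit and the split of Neurons_1 were chosen after seeing the data. The causes of the changes below were not tested. Precision is limited by 2 pools per genotype, by 17 to 44 UMIs of Zfp488 per library and, without the block, by the spread between repeats of Olig1, Olig2 and Sox10.

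Counts of genes called for genotype moved in oligodendrocytes from 13 to 120 with no filter on low counts, 72 with DESeq2, 550 with the replicate block, 142 with DESeq2 and the block, 517 with the bias-adjusted fit and the block, and 0 to 196 with a library left out (0 without the WT library of repeat 2 and 196 without the TRα1+m library of repeat 1). In OPCs the count of 0 became 11, 1, 64, 2 and 56 under the same 5 settings, and 1 to 8 with a library left out. In astrocytes it became 1, 1, 190, 12 and 235. In Neurons_1 it became 1 with DESeq2, 2 with the block, 10 with DESeq2 and the block, and 2 with the bias-adjusted fit and the block. The 53 genes whose genotype effect differed between the clusters became 127 with no filter, 3 with no library block and 45 to 87 with a library left out. For the repeats, 1568 genes in oligodendrocytes became 315 with DESeq2, 344 with no genotype term and 1 to 1103 with a library left out, and 1283 in OPCs became 123, 753 and 523 to 1213.

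Directions turned only for effects that were not called. In oligodendrocytes the log2 fold change of Olig1 was 0.0035 with the replicate block, 2.5e-05 with DESeq2 and the block, 0.0038 with the bias-adjusted fit and the block and 0.024 with equal numbers of nuclei, and that of Sox6 was -0.024, -0.11 and -0.035 under the first 3 of these. In Neurons_1 Nkx2-2 was -0.0011 with DESeq2, -0.041 with the block, -0.064 with DESeq2 and the block, -0.018 with the bias-adjusted fit and the block and -0.017 with equal numbers of nuclei, Sox10 was -0.019 with DESeq2 and the block, and Zfp488 was -0.033 with equal numbers of nuclei. The St18 difference between the clusters was -0.016 with no filter.

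With a library left out, log2 fold changes for genotype that turned ranged as follows. In oligodendrocytes they were Olig1 -0.49 to 0.51, Olig2 -0.56 to 0.66, Sox10 -0.44 to 0.52, Sox8 -0.066 to 0.38 and Sox6 -0.87 to 0.60. In OPCs they were Olig1 -0.94 to 0.88, Olig2 -0.81 to 0.68, Sox10 -0.44 to 0.73, Sox8 -0.24 to 0.16 and St18 -0.35 to 0.77. In astrocytes they were Olig1 -0.36 to 0.30, Olig2 -0.34 to 0.21, Sox10 -0.24 to 1.24, Sox8 -0.19 to 0.28, Nkx2-2 -0.74 to 0.090, Myrf -0.66 to 0.91 and St18 -0.10 to 0.57. In Neurons_1 they were Olig2 -0.14 to 0.20, Sox10 -0.68 to 0.57, Sox6 -0.32 to 0.25, Nkx2-2 -0.52 to 0.38, Myrf -0.96 to 0.099, St18 -0.64 to 0.26 and Zfp488 -0.29 to 0.51. For the difference between oligodendrocytes and OPCs they were Olig1 -0.29 to 0.39, Olig2 -0.086 to 0.25, Sox10 -0.23 to 0.018, Sox6 -0.90 to 0.39, Nkx2-2 -0.075 to 0.51 and St18 -0.47 to 0.44. For the repeats they were St18 -0.27 to 0.078 and Zfp488 -0.47 to 0.92 in oligodendrocytes and Nkx2-2 -0.34 to 0.15, Myrf -0.11 to 0.79 and Zfp488 -0.27 to 0.31 in OPCs.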
